A study of Mus musculus with 2 samples.

Results

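The members described here were the 4 motifs named EGR1, EGR2, EGR3 and EGR4, out of 579 transcription factor motifs counted in single cells of embryonic mouse retina. They were found by name in the deposited motif list, with the matrix identifiers MA0162.3, MA0472.2, MA0732.1 and MA0733.1, and the rule used their names and no measured value. The study profiled open chromatin by single-cell ATAC-seq, in which a transposase cuts accessible DNA in each nucleus, in dissociated wild-type (WT) retina at stage E14.5 of embryonic development. There were 2 replicate libraries of the same age and genotype and no other group, so cells and motifs were compared within each library and the libraries served as replicates. Nothing in the labels ties the 2 replicates to different animals. The p-values below compare clusters of cells, and the spread they are set against is that between 2 libraries, which could be technical. The series belongs to a study of retinal ganglion cell genesis, and the labels name no question about EGR factors.

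EGR proteins are zinc finger transcription factors of the immediate-early class. Growth factors, calcium and neuronal activity induce their genes through SRF, ETS partners and CREB, and the proteins bind a GC-rich element close in letters to the GC box bound by SP and KLF factors. EGR1 is widely used as a marker of neuronal activity, EGR2 is known for hindbrain segmentation and Schwann cell myelination, EGR3 for muscle spindle development, and EGR4 for male germ cells in the mouse. SP1 and its relatives bind GC boxes in the promoters of genes that most cells use, and this resemblance is why the EGR values are given below with and without the part shared with SP and KLF motifs.

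To show how closely the EGR and SP elements lie in promoter sequence, 32817 RefSeq promoter windows of 26994 mouse genes (GRCm38.p6, 250 bases before to 50 bases after each start) were searched on both strands for GCGNGGGCG, a common form of the EGR element, and for GGGCGG, the core of the GC box. The EGR pattern was found in 1823 windows, 5.56% of all, its form GCGTGGGCG in 201 (0.612%), and the GC box in 11693 (35.6%). The patterns can overlap in letters. Of the windows with the EGR pattern, 92.5% also held a GC box and 78.9% held 1 that did not overlap it, whereas 14.4% of the windows with a GC box held the EGR pattern. The median GC content was 69.7% in windows with the EGR pattern, 63.7% in those with a GC box and 52.7% in all windows. Of 36 genes looked up (the EGR genes and genes of the retinal motif lists used below), 22 had a window, and 4 of their 33 windows held the EGR pattern, in Neurod1, Neurog1, Lhx2 and Sox1. Egr2 and Egr4 had 6 windows, none with the pattern. The pair of windows below is shown because they put the EGR pattern and GC boxes side by side in genes of retinal progenitors and newborn neurons. Capitals mark every match of either pattern on either strand, and both run 5′ to 3′ along the gene. The Lhx2 window (chr2:38339031-38339330, plus strand, GRCm38.p6) belongs to a homeobox gene of the eye field. Its 1 EGR match overlaps 1 of its 4 GC boxes. The Neurod1 window (chr2:79456587-79456886, minus strand, GRCm38.p6) belongs to a neurogenic factor gene, and has 3 EGR matches and 4 GC boxes.
Lhx2: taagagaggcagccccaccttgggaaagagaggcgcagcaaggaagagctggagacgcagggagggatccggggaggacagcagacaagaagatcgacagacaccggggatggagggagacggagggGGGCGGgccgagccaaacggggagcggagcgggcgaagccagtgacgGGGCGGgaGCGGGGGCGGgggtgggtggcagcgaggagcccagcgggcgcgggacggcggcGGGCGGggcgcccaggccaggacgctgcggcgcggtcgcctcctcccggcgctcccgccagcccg
Neurod1: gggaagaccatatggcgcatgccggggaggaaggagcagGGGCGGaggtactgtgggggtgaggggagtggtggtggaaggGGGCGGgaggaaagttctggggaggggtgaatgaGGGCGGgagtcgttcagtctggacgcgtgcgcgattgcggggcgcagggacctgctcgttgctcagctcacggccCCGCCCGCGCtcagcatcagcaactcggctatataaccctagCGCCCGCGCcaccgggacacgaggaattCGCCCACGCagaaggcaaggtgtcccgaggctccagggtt
A match is a description of letters. Peak positions and the motif matrices were not used here, so these windows are not tied to any count below.

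Each value is a count of transposase cuts in peaks that contain a motif, and a cut in a peak adds to every motif in that peak. Motifs that share peaks therefore share counts, and counts are not independent molecules. A motif's share is its count divided by all motif counts of the cell. A barcode was kept as a cell when its total reached 300000 motif counts and exceeded the total of the same barcode in the other library, which left 890 of 2422 barcodes in replicate 1 and 1051 of 3033 in replicate 2. The libraries shared 1828 barcodes; 872 and 925 of the kept cells had a barcode that also occurred, at lower depth, in the other library, and 0 barcodes were kept in both. No doublet caller was run, and the labels give no step that removed doublets. Kept cells held 98.3% and 97.3% of all counts, with median totals of 3519151 and 3523871. As a check of the tissue, POU4F motifs of ganglion cells, and NEUROD and NEUROG motifs of neurogenic precursors, each led a cluster in the clustering described below. SOX motifs of progenitors led none: in cluster 2 the Sox1 motif (log2 0.095 above the library mean) came after MYBL1 (0.371). A motif cannot be assigned to 1 family member.

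All 4 EGR motifs were well covered in every kept cell. The EGR3 motif took 0.232% of motif counts in each replicate, and the EGR4 motif 0.158% and 0.167% in replicates 1 and 2. EGR2 took 0.0358% and 0.0361%, and EGR1 0.0335% and 0.0350%. Mean counts per cell in replicates 1 and 2 were 8590 and 8438 for EGR3, 5866 and 6085 for EGR4, 1327 and 1313 for EGR2, and 1245 and 1272 for EGR1. Ranked by mean share among the 579 motifs they stood at 106 (EGR3), 119 (EGR4), 321 (EGR2) and 327 (EGR1). The order EGR3, EGR4, EGR2, EGR1 was the same in both libraries. The gap between EGR2 and EGR1 was small, but the libraries' ranges of those motifs did not overlap. These levels also depend on how many peaks were assigned to each motif, so they do not rank the factors.

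Single cells varied around these means within narrow limits. The share of the EGR1 motif ran from 0.0214% through a median of 0.0335% to 0.0492% in replicate 1 and from 0.0258% through 0.0350% to 0.0578% in replicate 2. For EGR2 the lowest, median and highest cells were at 0.0273%, 0.0357% and 0.0493% in replicate 1 and at 0.0256%, 0.0360% and 0.0529% in replicate 2. For EGR3 they were at 0.162%, 0.231% and 0.329%, and at 0.186%, 0.232% and 0.320%. For EGR4 they were at 0.107%, 0.158% and 0.213%, and at 0.136%, 0.167% and 0.237%. The cells of both libraries overlapped over nearly the whole range for every EGR motif, and no cell was without any of the 4.

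**Figure D1:**
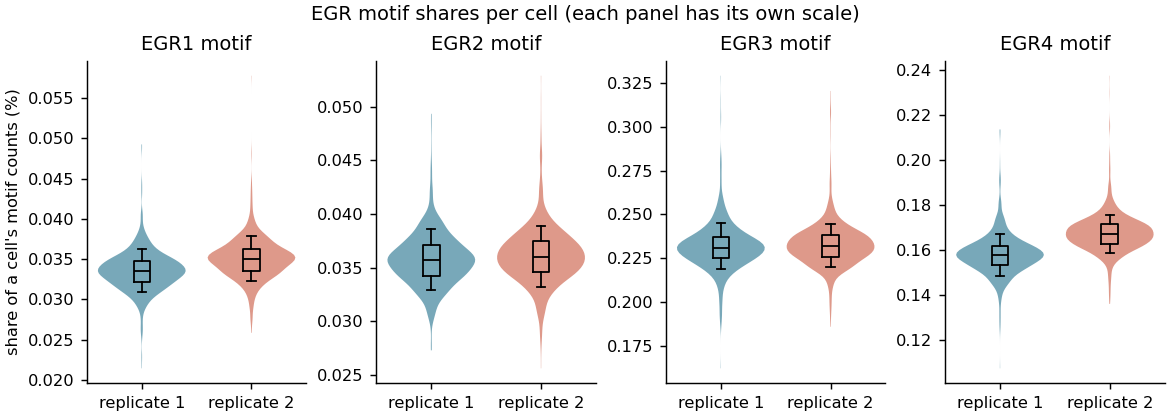
Share of each EGR motif among a cell's motif counts (percent, vertical axis, own scale per panel) in 890 cells of replicate 1 and 1051 cells of replicate 2. Violins show all cells, boxes the quartiles with the median, and whiskers the tenth and ninetieth percentiles; the EGR3 violins sit at the same height in both replicates and the EGR4 violin is higher in replicate 2.

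Counting noise was computed as if counts were independent, which they are not, so all values given above that noise are approximate. Once it was subtracted, the coefficient of variation between cells was 6.32% ± 0.21 for EGR1, 6.15% ± 0.31 for EGR2, 5.48% ± 0.30 for EGR3 and 5.15% ± 0.49 for EGR4 (SD, n = 2 libraries). The median motif had 6.19% and 6.27% in replicates 1 and 2, and the median SP or KLF motif 4.24% and 4.42%. The EGR motifs thus varied about as much as a typical motif, and in both libraries all 4 varied more than the median SP or KLF motif. Between the libraries the mean shares differed by a log2 ratio of -0.063 for EGR1, -0.015 for EGR2, -0.006 for EGR3 and -0.084 for EGR4, replicate 1 over replicate 2, against a median absolute difference of 0.021 over all motifs. For EGR4, 78 motifs differed by more. In the deepest 10% of cells the EGR shares differed from those of the other cells by a log2 ratio between -0.019 and -0.0006.

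The EGR motifs were high and low in the same cells. Correlations below are Pearson r of log2 shares over the cells of 1 library, given as the mean and SD of the 2 libraries, and describe cells that share a library and peaks. EGR3 and EGR4 were nearly 1 measurement, with r = 0.937 ± 0.016. The other pairs lay between r = 0.550 ± 0.008 (EGR1 and EGR2) and r = 0.640 ± 0.002 (EGR1 and EGR4), with EGR1 and EGR3 at 0.624, EGR2 and EGR3 at 0.604 and EGR2 and EGR4 at 0.595. EGR1 and EGR2, which had similar shares, had identical counts in 3 cells of replicate 1 and 5 of replicate 2, so they are separate rows of the matrix and not copies.

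Much of this common movement was shared with SP and KLF motifs. The SP and KLF score of a cell was the mean log2 share of 13 motifs, the 5 SP motifs SP1, SP2, SP3, SP4 and SP8 and the 8 KLF motifs Klf1, KLF4, KLF5, KLF9, Klf12, KLF13, KLF14 and KLF16. The score correlated with the EGR3 motif at r = 0.832 in replicate 1 and 0.797 in replicate 2. For EGR4 the values were 0.772 and 0.748, for EGR2 0.563 and 0.531, and for EGR1 0.453 and 0.482. The variance shared with the score was 66.4% ± 4.1 for EGR3, 57.7% ± 2.6 for EGR4, 30.0% ± 2.5 for EGR2 and 21.9% ± 1.9 for EGR1 (SD, n = 2 libraries). EGR3 and EGR4 therefore followed the score more closely than EGR1 and EGR2 in each library. EGR1 and EGR2 also had fewer counts, and counting noise lowers a correlation: as a share of the variance above counting noise, the score accounted for 73.5% and 69.0% of EGR3, 65.3% and 63.9% of EGR4, 43.3% and 38.7% of EGR2, and 27.1% and 32.8% of EGR1 in replicates 1 and 2.

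For the mean of the 4 EGR motifs, 53.8% ± 1.8 of the variance was shared with the SP and KLF score (SD, n = 2 libraries). When cells were ranked (Spearman) it was 36.4%, after thinning each cell to 300000 counts 34.6%, and over all deposited barcodes, most of them shallow, 3.45%. With cells sorted by the score into 5 equal groups, the mean share in the highest group over that in the lowest was 1.12 ± 0.01 for EGR3, 1.11 ± 0.02 for EGR4 and 1.08 ± 0.0006 for EGR1, beside 1.09 ± 0.004 for the SP and KLF motifs themselves (SD, n = 2 libraries). For EGR2 it was 1.11 in replicate 1 and 1.09 in replicate 2. The ratios of EGR3 and EGR4 were above that of the SP and KLF motifs in both libraries, and that of EGR1 was below it.

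**Figure D2:**
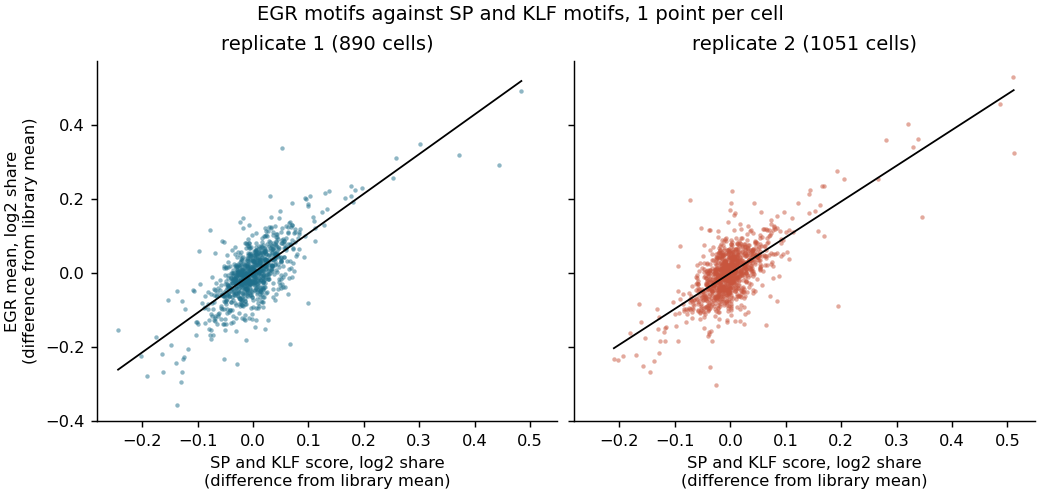
Mean of the 4 EGR motifs (log2 share, difference from the library mean, vertical axis) against the SP and KLF score (log2 share, difference from the library mean, horizontal axis), 1 point per cell and 1 panel per replicate, with the fitted line. The cells rise together, with r = 0.742 in replicate 1 and 0.725 in replicate 2.

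Among the single motifs reported, those most like the EGR mean (mean r of the 2 libraries, 575 motifs compared) were SP2 (0.799), SP1 (0.797), SP3 (0.785), KLF16 (0.782) and KLF5 (0.761), followed by NRF1 (0.755), Zfx (0.747), Tcfl5 (0.738) and SP8 (0.737). SP factors activate through GC boxes, and NRF1 drives promoters of respiratory and housekeeping genes. SP4 (0.731), KLF14 (0.712), Klf12 (0.654) and KLF13 (0.604) came lower. KLF9 (0.413), Klf1 (0.195) and KLF4 (0.053) were the least like the EGR mean of the 13. SP and KLF motifs were thus not 1 block: KLF9, Klf1 and KLF4 stood apart from the others, and KLF4 hardly followed the EGR motifs. The median of all 575 motifs was r = -0.078 in replicate 1 and -0.060 in replicate 2.

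To ask what remained, each EGR motif was regressed on the SP and KLF score within each library, and the residual log2 share was kept. The residual SD between cells was 0.093 for EGR1, 0.085 for EGR2, 0.050 for EGR4 and 0.046 for EGR3 on the log2 scale. With counts taken as independent, 65.7% ± 5.2 of the residual variance of EGR1, 61.5% ± 1.0 of EGR2, 79.7% ± 2.1 of EGR3 and 75.0% ± 4.8 of EGR4 lay above counting noise (SD, n = 2 libraries). A larger noise would lower these parts. The EGR motifs also still moved together. EGR3 and EGR4 kept r = 0.844, EGR1 kept 0.497 with EGR4, 0.477 with EGR3 and 0.398 with EGR2, and EGR2 had 0.327 with EGR3 and 0.329 with EGR4. The mean over the 6 pairs was 0.479 (0.492 and 0.466 in replicates 1 and 2), all 6 pairs were positive in both libraries, and thinning to 300000 counts, which adds counting noise, brought the mean to 0.207.

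**Figure D3:**
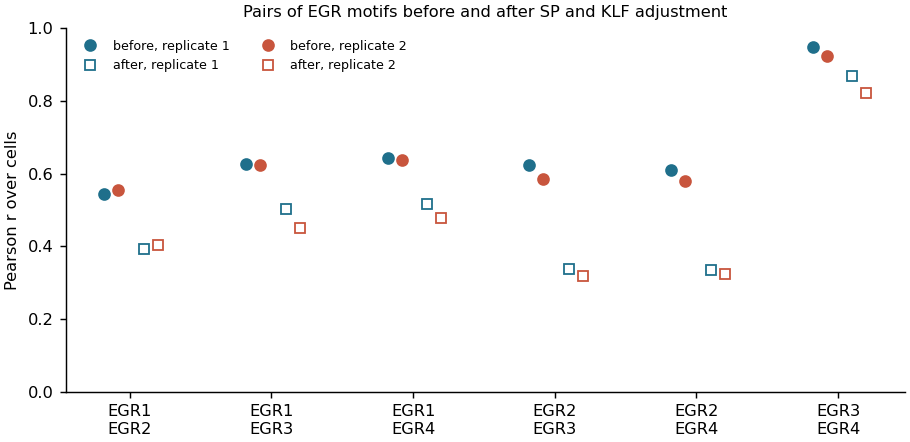
Pearson r over cells (vertical axis) for the 6 pairs of EGR motifs (horizontal axis), with filled circles before and open squares after adjustment for the SP and KLF score, coloured by replicate. EGR3 with EGR4 is the highest pair (0.937 before, 0.844 after) and every pair is lower after adjustment and above 0.

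The SP and KLF score did not take up all that the EGR motifs shared with SP motifs. After adjustment the EGR mean still had r = 0.433 and 0.446 with the mean of the SP motifs in replicates 1 and 2, and -0.433 and -0.446 with that of the KLF motifs, which mirror each other because the score is made from both. Among single SP and KLF motifs it had 0.467 with SP2, 0.467 with SP1, 0.416 with SP3 and 0.401 with KLF16. All were above every motif outside those families, but the adjustments differed. Each SP or KLF motif was adjusted for the mean of the others in the list, and motifs outside for the full score. The values below therefore still hold a part shared with SP motifs, and are given also with SP motifs as the adjusting score, with SP and KLF as 2 scores, and with the 13 motifs as separate terms, for lists that these settings move.

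Outside those families relations were weaker. Before adjustment 77 of 575 motifs, SP and KLF motifs included, had an absolute r above 0.5 in both libraries. After it 0 of the 562 motifs outside those families did, so the sets counted differ. Among the highest after adjustment were E2F6 (0.393), NRF1 (0.384), E2F4 (0.373), Tcfl5 (0.367), Ahr::Arnt (0.352), Zfx (0.333), TFAP2A(var.2) (0.328), HINFP (0.325) and ZIC4 (0.322). E2F4 and E2F6 are repressive members of the cell cycle E2F family. The lowest were NR2C2 (-0.273), Pparg::Rxra (-0.261), Nr5a2 (-0.233), VDR (-0.228) and Nr2f6 (-0.227), all nuclear receptor motifs.

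Lists of motifs were then set beside the EGR mean by role, each as the mean log2 share of its members. Among the pathways known to induce EGR genes, the 9 ETS motifs, which include the SRF partners of the ELK group, had r = 0.552 and 0.571 in replicates 1 and 2 before adjustment and 0.162 and 0.180 after it. Their mean of 0.171 came to 0.052 with SP motifs, 0.037 with 2 scores and 0.040 with 13 terms. The 9 CREB and ATF motifs, bound by cyclic AMP and calcium responsive factors, went from 0.392 and 0.373 to -0.017 and 0.061. The SRF motif went from 0.109 and -0.035 to -0.038 and -0.160 (a mean of -0.029 with 13 terms), and the 4 MEF2 motifs, also of activity responsive factors, from -0.173 and -0.001 to -0.010 and 0.001. The 21 AP-1 motifs, which belong to the FOS and JUN immediate-early factors, were lower where EGR was higher, with -0.299 and -0.245 before and -0.180 and -0.151 after. Their mean of -0.165 came to -0.110 with SP motifs, -0.090 with 2 scores and -0.019 with 13 terms.

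The core promoter, CTCF, GC-rich zinc finger and E2F lists had a lower r after the adjustment. The 6 core promoter motifs went from 0.526 and 0.444 to 0.146 and 0.139, and as a mean to 0.030 with SP motifs, 0.008 with 2 scores and 0.014 with 13 terms, the last pair with a negative r in replicate 2. The 2 CTCF motifs went from 0.557 and 0.535 to 0.154 and 0.190, and to 0.091 with 13 terms. The 15 other GC-rich zinc finger motifs went from 0.549 and 0.553 to 0.170 and 0.133, and to 0.048 with SP motifs, 0.043 with 2 scores and -0.0102 with 13 terms. The 8 E2F motifs of the cell cycle had 0.158 and 0.265 before and 0.039 and 0.166 after, and 0.047, 0.028 and 0.078 under the same 3 settings.

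Among retinal lists, the 9 TFAP2 motifs, of amacrine and horizontal cell factors with a GC-rich site, had the highest r before (0.660 and 0.656) and after (0.271 and 0.284), and 9 of 9 were positive after it in both libraries. With 13 terms the list was at 0.141. Its relation to the single members after adjustment ran from 0.103 (EGR2) to 0.373 (EGR3) in replicate 2. The 3 ONECUT motifs, of horizontal and ganglion cell factors, were near 0 before (-0.023 and -0.027) and positive after (0.184 and 0.154), but came to 0.056 with the 13 separate terms. The 3 POU4F motifs of ganglion cells turned from -0.136 and -0.168 to 0.113 and 0.081, with 0.192 under SP motifs, 0.218 under 2 scores, 0.116 under 13 terms and 0.054 after thinning. In each of these retinal lists EGR2 had the smallest r of the 4 members after adjustment in both libraries. The 3 CRX and OTX motifs of photoreceptors had 0.100 and 0.031 before and 0.051 and 0.074 after. The 5 proneural motifs had -0.156 and -0.149, then -0.044 and -0.068. Progenitor lists were lower where EGR was higher: the 5 VSX, RAX and LHX homeodomain motifs went from -0.663 and -0.634 to -0.204 and -0.181, the 6 SOX motifs from -0.537 and -0.470 to -0.152 and -0.074, and the 4 TEAD motifs from -0.389 and -0.332 to -0.197 and -0.089. With 13 terms these lists came to -0.076, -0.013 and -0.006, the SOX and TEAD lists with a positive r in replicate 2. With SP motifs the SOX list was at -0.075.

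Lists for cells outside the neural retina were also read. The 4 MITF and TFE motifs of pigment epithelium had 0.579 and 0.544 before and 0.131 and 0.136 after, and 0.055 with SP motifs, 0.067 with 2 scores and 0.043 with 13 terms. The 4 SPI1 and RUNX motifs of microglia had -0.062 and -0.072, then -0.020 and -0.023, and -0.061, -0.085 and -0.057 under the same 3 settings. The 7 GATA motifs of endothelial and erythroid cells had -0.284 and -0.241, then -0.025 and -0.044. The part of such cells in the EGR values was not tested.

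**Figure D4:**
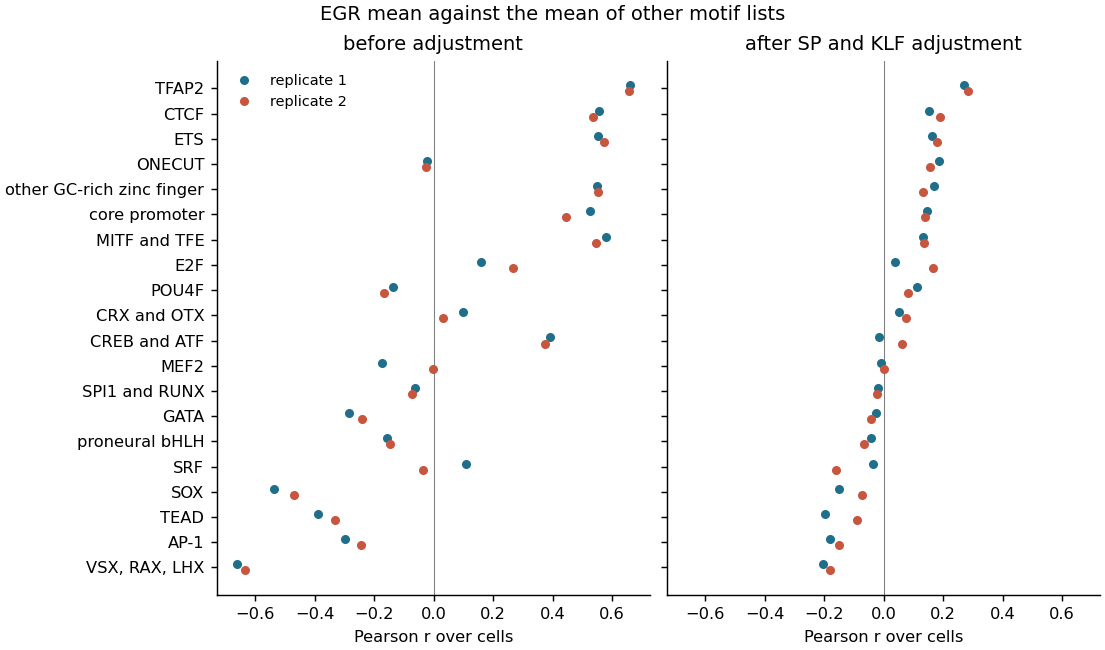
Pearson r over cells (horizontal axis) between the mean of the 4 EGR motifs and the mean of each of 20 other motif lists (vertical axis), before the adjustment on the left and after it on the right, 1 point per replicate. TFAP2 is at the top of both panels (0.660 and 0.656 before, 0.271 and 0.284 after), the VSX, RAX and LHX list at the bottom, and most points lie closer to 0 on the right.

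Cells were grouped without the EGR, SP and KLF motifs and without 13 further motifs with r above 0.7 to the EGR mean or to the SP and KLF score, which left 549 motifs and gave 6 clusters, each present in both libraries. The clustering motifs share peaks and cells with the EGR motifs, so the clusters are not independent of them. Clusters 1 and 2 were the largest (26.4% and 25.4% of cells). ZBTB7B, MYBL1 and ZBTB7C motifs led cluster 1, and MYBL1, Sox1 and RORB motifs led cluster 2. Cluster 3 (15.5% and 13.5% of cells in replicates 1 and 2) was led by NEUROD1, NEUROD2 and Neurog1 motifs, and cluster 4 (14.3%) by POU4F1, POU4F3 and POU4F2. Cluster 5 (12.9%) was led by MYBL1 and nuclear receptor motifs such as NR1H4, and its cells were deeper than the library's median, 1.27 and 1.28 times in replicates 1 and 2. Cluster 6 (6.57%) was led by ZBTB7B, ZBTB7C and HIF1A, with NRF1 among its top 10, and its cells were shallower, 0.594 and 0.672 times the median.

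All 4 EGR motifs were highest in cluster 6 and lowest in cluster 2 or 5. The EGR3 motif took 0.254% and 0.255% of counts in cluster 6 (replicates 1 and 2), 0.234% and 0.236% in cluster 4, 0.234% in both replicates of cluster 1, 0.229% and 0.232% in cluster 3, 0.226% and 0.227% in cluster 2, and 0.224% and 0.226% in cluster 5. Cluster 6 stood clear of the rest in both libraries, whereas neighbours in this order, such as clusters 4 and 1 or 2 and 5, lay within or next to each other's spread. EGR4 ran from 0.153% in cluster 5 to 0.172% in cluster 6 in replicate 1, and from 0.164% to 0.181% between the same clusters in replicate 2. EGR2 ran from 0.0350% in cluster 2 to 0.0384% in cluster 6 in replicate 1, and from 0.0355% to 0.0384% in replicate 2. EGR1 ran from 0.0322% in cluster 5 to 0.0361% in cluster 6 in replicate 1, and from 0.0342% to 0.0370% in replicate 2.

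On the log2 scale cluster 6 lay above the library mean by 0.15 for EGR3, 0.13 for EGR4, 0.11 for EGR2 and 0.11 for EGR1, and its SP and KLF score was higher by 0.11. Cluster 4 lay above the mean by 0.042 for EGR1, 0.024 for EGR3, 0.023 for EGR4 and 0.012 for EGR2, with the SP and KLF score higher by 0.003. The range of the EGR mean between clusters was 0.17, against a median range of 0.13 over all 579 motifs. By edgeR's quasi-likelihood F test across the 6 clusters, with library as a block, TMM scaling and Benjamini-Hochberg adjustment over all motifs, all 4 were called (adjusted p = 0.000208 for EGR1, 2.55e-05 for EGR2, 9.5e-06 for EGR3 and 1.79e-06 for EGR4). In that test 518 of 579 motifs, 89.5%, were called, so 4 of 4 is near the background. Without the library block EGR1 (adjusted p = 0.116) and EGR4 (adjusted p = 0.199) lost the call. These were also the highest of their adjusted p over the alternatives tried, and EGR2 and EGR3 stayed at or below 0.0016.

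After adjustment the order changed. Cluster 6 came to 0.019 for EGR3, 0.016 for EGR4, 0.0064 for EGR1 and 0.0005 for EGR2 on the log2 scale, and cluster 4, the POU4F cluster, had the highest residual of the EGR mean in both libraries. Single motifs differed: cluster 6 was above cluster 4 for EGR3 in replicate 2 (0.024) and for EGR2 in replicate 1 (0.017). EGR2 in replicate 2 was highest in cluster 2 (0.007). The residual of EGR1 in cluster 4 was 0.045 in replicate 1 and 0.032 in replicate 2, that of EGR3 0.021 and 0.020, that of EGR4 0.024 and 0.016, and that of EGR2 0.013 and 0.005. Cluster 5 was lowest in both libraries for EGR1 (-0.065 and -0.042), EGR3 (-0.050 and -0.049) and EGR4 (-0.048 and -0.041). For EGR2 cluster 5 had -0.018 and -0.014, and in replicate 2 cluster 6 was lower (-0.016). For EGR1, EGR3 and EGR4 the replicates of clusters 4 and 5 did not overlap. EGR1 (0.025 and -0.012) and EGR2 (0.017 and -0.016) in cluster 6 had opposite signs in the 2 libraries. Cluster 5 also held the deepest cells, and with log10 total as a second term its residuals were -0.053 for EGR1, -0.049 for EGR3 and -0.044 for EGR4 as means of the libraries. With SP and KLF as 2 scores they shrank to -0.023, -0.019 and -0.015, and with 13 terms to -0.013, -0.009 and -0.005. EGR2 in cluster 5 turned positive under SP motifs (0.0020), 2 scores (0.0057) and 13 terms (0.0066).

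**Figure D5:**
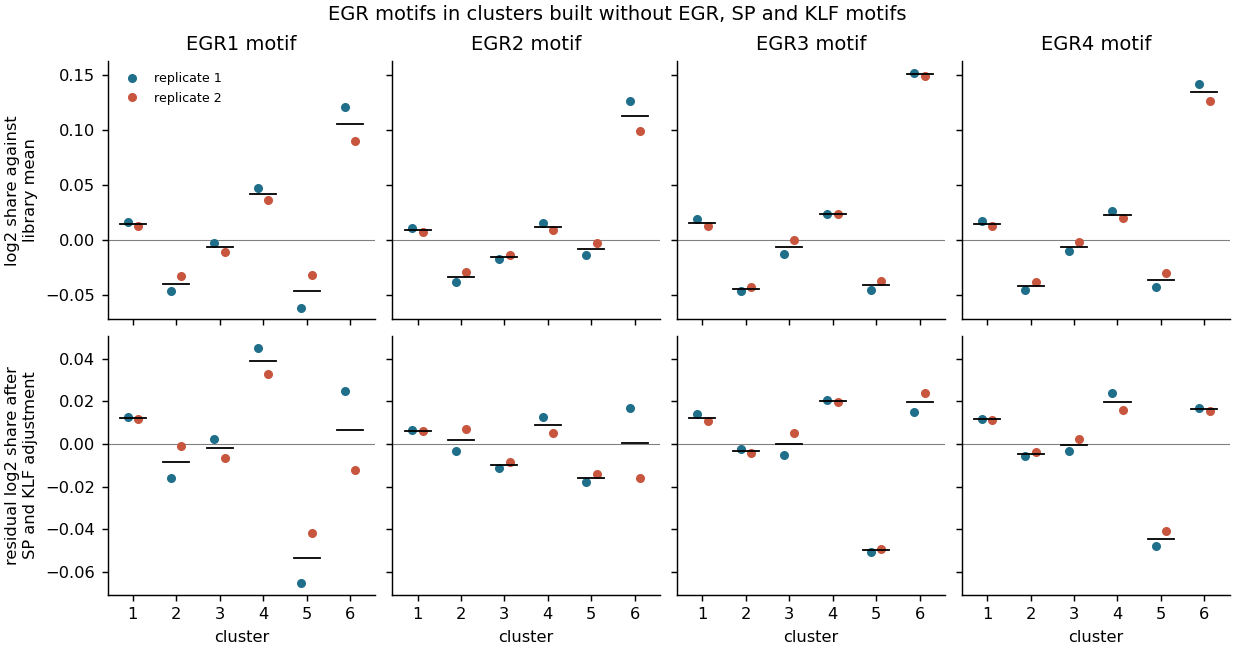
Log2 share against the library mean (upper row) and residual log2 share after SP and KLF adjustment (lower row) for each EGR motif in clusters 1 to 6 (horizontal axis), with 1 point per replicate and a bar at their mean. Cluster 6 is highest in the upper row (0.15 for EGR3), and in the lower row cluster 5 is lowest for each of the 4 except that replicate 2 of EGR2 is lower in cluster 6.

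By limma's F test on the mean residuals, with library as a block and Benjamini-Hochberg adjustment over all motifs, EGR1 (adjusted p = 0.00599), EGR3 (adjusted p = 4.91e-05) and EGR4 (adjusted p = 6.08e-05) were called and EGR2 (adjusted p = 0.208) was not, while 552 of 579 motifs, 95.3%, were called. The range of the EGR mean between clusters was 0.063 after adjustment against a median of 0.084 over all motifs. Under the alternatives the adjusted p ran from 0.0024 to 0.069 for EGR1, 0.0291 to 0.411 for EGR2, 6.94e-06 to 0.0242 for EGR3 and 3.61e-06 to 0.0117 for EGR4. EGR2 was called with KLF motifs as the adjusting list, and EGR1 was not with the 13 SP and KLF motifs as separate terms. Those terms also narrowed the range of the EGR mean to 0.022, with cluster 4 at 0.023 for EGR1, 0.008 for EGR3 and 0.008 for EGR4. As means of the libraries, cluster 6 then took the lowest place for EGR1 (-0.018), EGR2 (-0.011) and EGR4 (-0.007). This held in replicate 2 only. In replicate 1 cluster 5 was still below cluster 6 for EGR1 (-0.020 against -0.0016) and EGR4 (-0.0070 against -0.0056). EGR2 in cluster 6 was positive there (0.0072). In the means and in replicate 2 the low place of cluster 5 thus depends on how the SP and KLF motifs enter. With KLF motifs as the adjusting list, cluster 6 lay above cluster 4 in both libraries for EGR3 (means 0.037 against 0.018) and EGR4 (0.032 against 0.018). For EGR2 cluster 6 was above as a mean (0.014 against 0.007) but below in replicate 2 (-0.0009 against 0.0032). For EGR1 cluster 6 lay below cluster 4 (0.021 against 0.037). The high place of cluster 4 thus depends on the adjusting list as well.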

How the data were processed

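Libraries were made by the 10x Genomics single-cell ATAC-seq protocol from E14.5 WT retina. Per the submitters' processing notes Cell Ranger and build mm10 were used, and per the file headers the matrices were written by software version 1.1.0. The deposited values are raw counts per motif and barcode, not normalized by the authors; motif matrices and peaks were not used here. No binomial intervals are given, since 1 cut can count for several motifs and counts are not independent.

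From the counts, shares and log2 shares (0.5 count added, per 10000) were computed for kept cells, together with residuals from a within-library regression on the SP and KLF score. Cells were clustered with scanpy 1.11.5 (15 components, 20 neighbours, Leiden resolution 0.5, igraph 0.11.9). Counts summed per cluster and library were tested with edgeR 4.0.16 and mean residuals with limma 3.58.1 (R 4.3.3, 5 residual degrees of freedom, threshold 0.05). DESeq2 1.42.0 was an alternative. The library block was used because cells of a library share it: mean shares of the EGR motifs differed between libraries as given in the report. The scripts were tested on simulated data.

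Motifs named are the members, each SP and KLF motif, the 10 most like the EGR mean before adjustment, and the 10 highest and 5 lowest after it; cluster leaders were named after their values were seen. A motif that this rule selects is not reported here. The members and lists were chosen with earlier results of these data known. Of the list names, 5 of 6 SP and 8 of 15 KLF names matched a motif.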

Additional observations from a re-analysis of the deposited data

Results flagged for a closer look

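The barcodes left out of the cell filter also carried EGR motif counts, above the 3 counts that a count of 0 allows. In the 1532 barcodes left out of replicate 1, the 4 EGR motifs together took 0.4478% of motif counts, beside 0.457% in the kept cells. In the 1982 barcodes left out of replicate 2 they took 0.4653%, beside 0.470% in the kept cells. With 2 libraries, no group was large enough to test for a library that stands apart.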

How the results depend on the processing

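The variance of the EGR mean shared with the adjusting scores (53.8%) was 3.45% over all barcodes, 34.6% after thinning, 36.4% by rank, 56.4% with a pseudocount of 1 per 10000, 61.7% with SP motifs, 45.6% with KLF motifs, and, in adjustments chosen after seeing the data, 62.7% with SP and KLF as 2 scores and 67.0% with the 13 motifs as terms. With 1 library at a time it ran from 52.5% to 55.0%. The mean r of the 6 EGR pairs after adjustment (0.479) was 0.207 after thinning, 0.426 with SP motifs, 0.419 with 2 scores, 0.401 with 13 terms, and 0.466 to 0.492 with 1 library. Without the replicate block, 2 of the 4 motifs were called across clusters before adjustment, and 379 motifs in all against 518. After adjustment the block changed no EGR call, and 557 motifs in all were called without it against 552. Some lists changed sign. The GC-rich zinc finger list (0.151 as the mean of the libraries) was at -0.0102 with 13 terms. CREB and ATF were at -0.00327 with a core promoter score, -0.0127 with SP motifs, and -0.0172 to 0.0608 with 1 library. MEF2 was at 0.0139 after thinning, 0.00393 with a core promoter score, 0.0229 with SP motifs, 0.0297 with 2 scores, 0.00361 with 13 terms, and -0.00984 to 0.0015 with 1 library. The proneural list was at 0.00122 with SP motifs and 0.0217 with 2 scores. CRX and OTX were at -0.00424 after thinning and -0.0415 with 13 terms. GATA was at 0.0371 with SP motifs, 0.0523 with 2 scores and 0.0206 with 13 terms. The causes were not tested. A filter on low counts removed no motif. With 1 library left there are no residual degrees of freedom, so no test was made. The remaining values under alternatives were those for single motifs, lists, cluster ranges and counts of called motifs. Of these, 236 kept their direction, call or rough size or stayed within the spread, 53 moved, 17 reversed, 3 lost a call and 1 gained it. The 236 include values from 1 library, which themselves set the spread, and the filter that removed no motif. They therefore overstate how stable the values were. EGR1 and EGR2, the members with the fewest counts, had the largest computed counting noise. In replicates 1 and 2 it was 3.62% and 3.85% for EGR1 and 3.52% and 3.79% for EGR2. For EGR3 it was 1.38% and 1.49%, and for EGR4 1.67% and 1.76%. The effect of depth on single members was not tested beyond their mean shares.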
